A study of Homo sapiens with 6 samples.

Results

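Antisense and divergent noncoding RNAs were followed in T24, a cell line grown from a human bladder carcinoma of the urothelium. They were taken as all genes on single-gene probe sets whose symbol ends in -AS1, -AS2 or -DT, with EPB41L4A-AS1 left out. This gave 118 of the 18132 genes measured, of which 97 end in -AS1, 4 in -AS2 and 17 in -DT, and RefSeq lists each as a long noncoding RNA. Of the 6 Affymetrix arrays, 3 held T24 cells treated with MAP30 (10 µg/ml, 48 hours) and 3 held control T24 cells. MAP30, from bitter melon, is an enzyme that inactivates ribosomes by taking a base out of ribosomal RNA. The vehicle and time of the control cells are not given in the sources used here. Replicates are not said to come from separate cultures, and p-values here measure only the spread between these arrays, which may be technical. In such bulk samples fewer cells of a kind and less RNA per cell cannot be told apart.

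An antisense RNA is read from the strand opposite to the gene it is named after and may overlap that gene, while a divergent transcript starts beside the gene's own start and runs the other way. Both are usually spliced, polyadenylated and scarce next to mRNA. Some are known to act on the gene beside them through chromatin, transcription or RNA pairing, and many have no known role. Each symbol therefore names a neighbouring gene, and 114 of the 118 RNAs could be set against it. GRIK1-AS1 and GRIK1-AS2 share theirs, so 113 genes stand on the other side. CYP51A1-AS1, GAS8-AS1, LY6S-AS1 and NPSR1-AS1 had no named gene measured on a single-gene probe set.

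Values were taken to be on a log2 scale, although the base is not stated. Each probe set was centred on its median over the 6 arrays. A value of 0 is therefore the middle of the 6 arrays and not a level. No RNA can be called abundant, scarce or above background, and neither the T24 identity of the cells nor a difference in level between an RNA and its neighbour can be read from the table. The SD of the difference between 2 arrays was 0.105 to 0.121 within groups and 0.617 to 0.621 between them. Probe sets at the 3' end of the ACTB control rose against those at its 5' end by 0.16 on the log2 scale with MAP30 (SD 0.0068 with MAP30 and 0.021 in control, n = 3 each; two-sided exact permutation p = 0.1, the smallest that 3 against 3 allows), and those of GAPDH by 0.04 (p = 0.1 by the same exact test). This shift has the same grouping as every result below and its part in them was not tested. Of the marker lists, luminal urothelial genes had 2 of 9 higher and 2 lower, basal genes 1 of 4 higher, leukocyte genes 1 of 4 higher and 1 lower, and fibroblast genes 1 of 5 higher. These counts use the calls defined below, by which 57.5% of all genes were called.

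With MAP30, 21 of the 118 were higher than in control, 15 were lower and 82 did not pass, by limma with Benjamini-Hochberg adjustment over all 18132 genes at an adjusted p of 0.05. Over all genes 26.9% were higher and 30.6% lower, so that 30.5% of these RNAs were called against 57.5% of all genes. The median absolute log2 fold change was 0.08 for these RNAs and 0.19 for all genes, and 66 of the 118 lay within 0.1 of 0. The 3 MAP30 arrays lay apart from the 3 control arrays in 38 of the 118 RNAs, or 32.2%, against 62.6% of all genes (29.1% higher and 33.6% lower). At least a 2-fold rise that passed was met by 3 RNAs, against 5.42% of all genes, and at least a 2-fold fall by 0, against 4.13% of all genes.

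**Figure D1:**
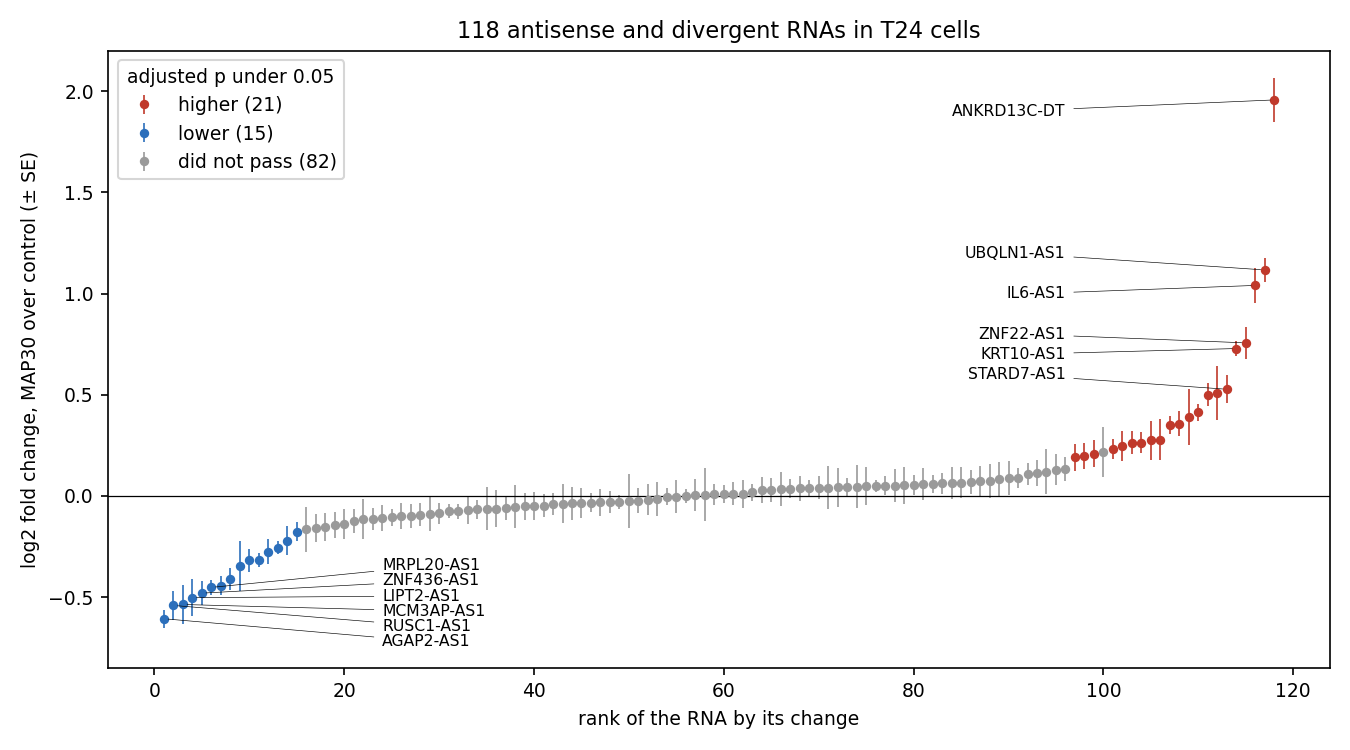
The 118 RNAs in order of their log2 fold change, MAP30 over control, with the SE of the fit as bars (3 arrays a group); colours mark the call at an adjusted p of 0.05. The 82 RNAs that did not pass run from -0.17 to 0.22, and ANKRD13C-DT stands apart at 1.96.

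Other noncoding RNAs were called in a similar share. Of 150 genes with LINC symbols, which are intergenic noncoding RNAs, 19 were higher and 23 lower, or 28%, with a median absolute change of 0.08. Over all 454 genes that RefSeq lists as long noncoding RNAs 29.1% were called, against 58.8% of the 17270 protein-coding genes. Of 6 intronic or overlapping transcripts 1 was lower, and of 8 further antisense symbols outside the rule 2 were higher and 1 lower. Among the antisense and divergent RNAs, those ending in -AS1 were called in 29.9%, those ending in -DT in 35.3% and 1 of the 4 ending in -AS2, GRIK1-AS2. The genes named in the symbols were called in 65.5%, with 35 higher and 39 lower of 113 and a median absolute change of 0.24.

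Precision and the number of probe sets differed as well. The median SE of the log2 fold change was 0.064 over these RNAs and 0.047 over all genes. RNAs with 1 probe set were called in 20 of 77 cases and those with more in 16 of 41. Over all genes the shares were 45.6% with 1 probe set and 64% with more. How far low signal of noncoding RNAs holds down these shares was not tested, because the deposited values carry no level.

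**Figure D2:**
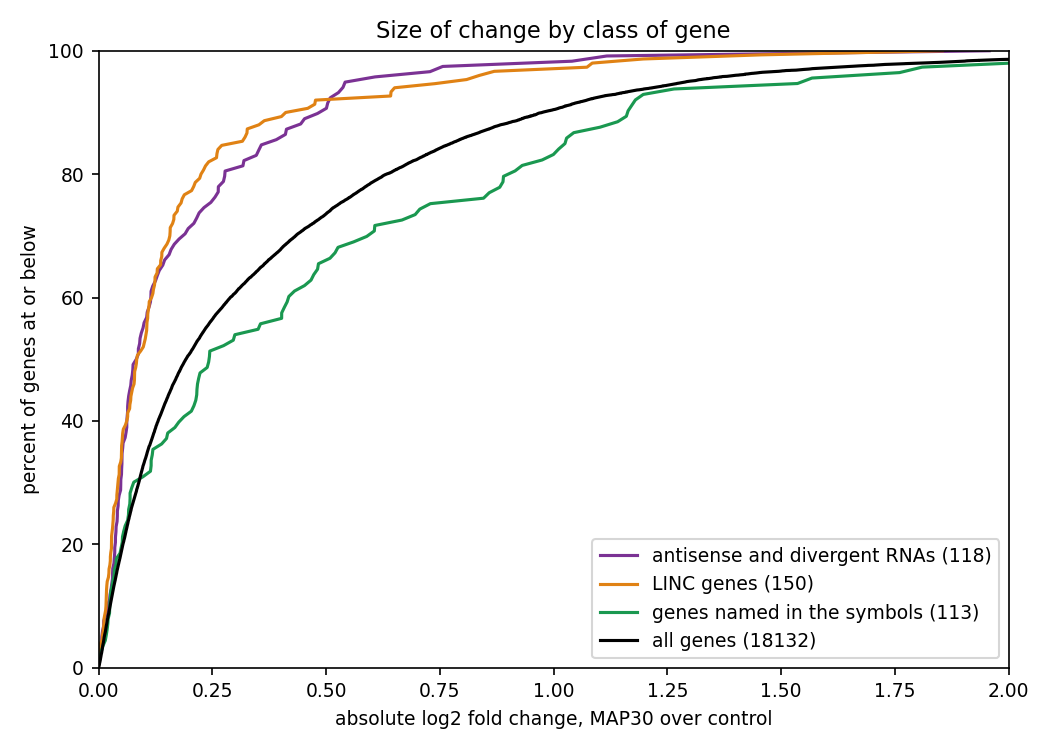
Cumulative percent of genes at or below each absolute log2 fold change, MAP30 over control, for the 118 antisense and divergent RNAs, 150 LINC genes, the 113 genes named in the symbols and all 18132 genes; the axis ends at 2. The curves of both noncoding classes rise first, with medians of 0.08, and that of the named genes rises last, with a median of 0.24.

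ANKRD13C-DT had the largest rise. Its values were 1.12, 1.11 and 0.79 in MAP30 arrays, against -0.92, -1.11 and -0.82 in control arrays, and the groups lay far apart. The rise was 3.88-fold (log2 fold change 1.96 ± 0.11 SE; adjusted p by limma 1.97e-06). Its 2 probe sets rose by unequal amounts, 2.89 and 1.02 on the log2 scale, so the size rests on which is used. ANKRD13C, which encodes an ankyrin repeat protein of the endoplasmic reticulum, rose by 0.59 ± 0.04 SE. The RNA rose more than the gene, by 1.37 ± 0.12 SE (adjusted p by limma 2.52e-05 for the difference).

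UBQLN1-AS1 and IL6-AS1 were the other RNAs that rose at least 2-fold. UBQLN1-AS1 stood at 0.49, 0.54 and 0.49 in MAP30 arrays, against -0.61, -0.73 and -0.49 in control arrays, a 2.17-fold rise (1.12 ± 0.06 SE). UBQLN1, which encodes a shuttle factor that carries ubiquitinated proteins to the proteasome, rose by 0.70 ± 0.03 SE. IL6-AS1 stood at 0.66, 0.74 and 0.39 in MAP30 arrays, against -0.49, -0.44 and -0.39 in control arrays, a 2.06-fold rise (1.04 ± 0.09 SE). Its neighbour IL6, the gene of an inflammatory cytokine, rose 4.21-fold (2.07 ± 0.04 SE), more than the RNA by 1.03 on the log2 scale (adjusted p by limma 7.03e-05). For both pairs all MAP30 arrays lay above all control arrays on either side.

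Among smaller rises, KRT10-AS1 was 1.66-fold higher at 0.73 ± 0.04 SE, with 0.33, 0.42 and 0.39 in MAP30 arrays and -0.35, -0.34 and -0.35 in control arrays. KRT10, which encodes a keratin of suprabasal epidermis, rose by 0.36. LGALS8-AS1 rose by 0.51 ± 0.13 SE, with a wide spread of 0.10, 0.10 and 0.57 in MAP30 arrays and -0.10, -0.32 and -0.34 in control arrays. Its neighbour LGALS8, which encodes a galectin that senses damaged endosomes, rose 2.90-fold in all 11 of its probe sets. BASP1-AS1 rose by 0.50, beside a rise of 0.22 of BASP1, which encodes a membrane-bound signalling protein. BASP1 lost its call with hybridization-control centring, at 0.01.

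Of the RNAs that fell, AGAP2-AS1 changed most. It stood at -0.40, -0.35 and -0.25 in MAP30 arrays, against 0.28, 0.28 and 0.25 in control arrays, and was 1.52-fold lower (-0.61 ± 0.04 SE; adjusted p by limma 1.00e-05). AGAP2, which encodes a GTPase-activating protein for ARF proteins, was lower by a smaller amount (-0.22), a call that it lost with poly-A-control centring (-0.05). RUSC1-AS1 was lower by 1.46-fold, with -0.26, -0.26 and -0.15 in MAP30 arrays and 0.46, 0.18 and 0.32 in control arrays. RUSC1, an adaptor protein gene, fell further (-0.92 ± 0.04 SE against -0.54 ± 0.07 SE of the RNA).

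LIPT2-AS1 and MRPL20-AS1 were lower together with their genes, both of which serve mitochondria. LIPT2-AS1 was at -0.50 and LIPT2, an enzyme gene of protein lipoylation, at -0.35. MRPL20-AS1 was at -0.45 and MRPL20, which encodes a protein of the mitochondrial ribosome, at -0.30. The difference within the LIPT2 pair did not pass (-0.15 ± 0.11 SE; adjusted p by limma 0.27), and that within the MRPL20 pair did (-0.16 ± 0.05 SE; adjusted p by limma 0.0384).

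The RNA and its named gene were then set side by side in the 114 pairs. Both passed in 29 pairs, in the same direction in 20 and in opposite directions in 9. The gene alone passed in 45 pairs, the RNA alone in 7 and neither in 33. These counts turn on scaling: with hybridization-control centring 60 pairs went the same way, 16 opposite ways and 24 had the gene alone called, and with poly-A-control centring 15 went opposite ways and 17 had the RNA alone called. Pearson's r between the changes over the 114 pairs was 0.20 and Spearman's rho 0.19, and r was 0.20 without ANKRD13C-DT. This is a description across pairs that share the same arrays and scaling, and pairs are not replicates. The absolute change was larger in the gene in 75 pairs and in the RNA in 39. The difference between the 2 changes passed in 70 of the 114 pairs (61.4%), with the RNA above its gene in 39 and below it in 31. A constant added to a whole array cancels in the size of that difference, while other scalings such as quantile normalization can move it. The difference passed in 74 pairs with hybridization-control centring, in 70 with poly-A-control centring and in 70 with quantile normalization.

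**Figure D3:**
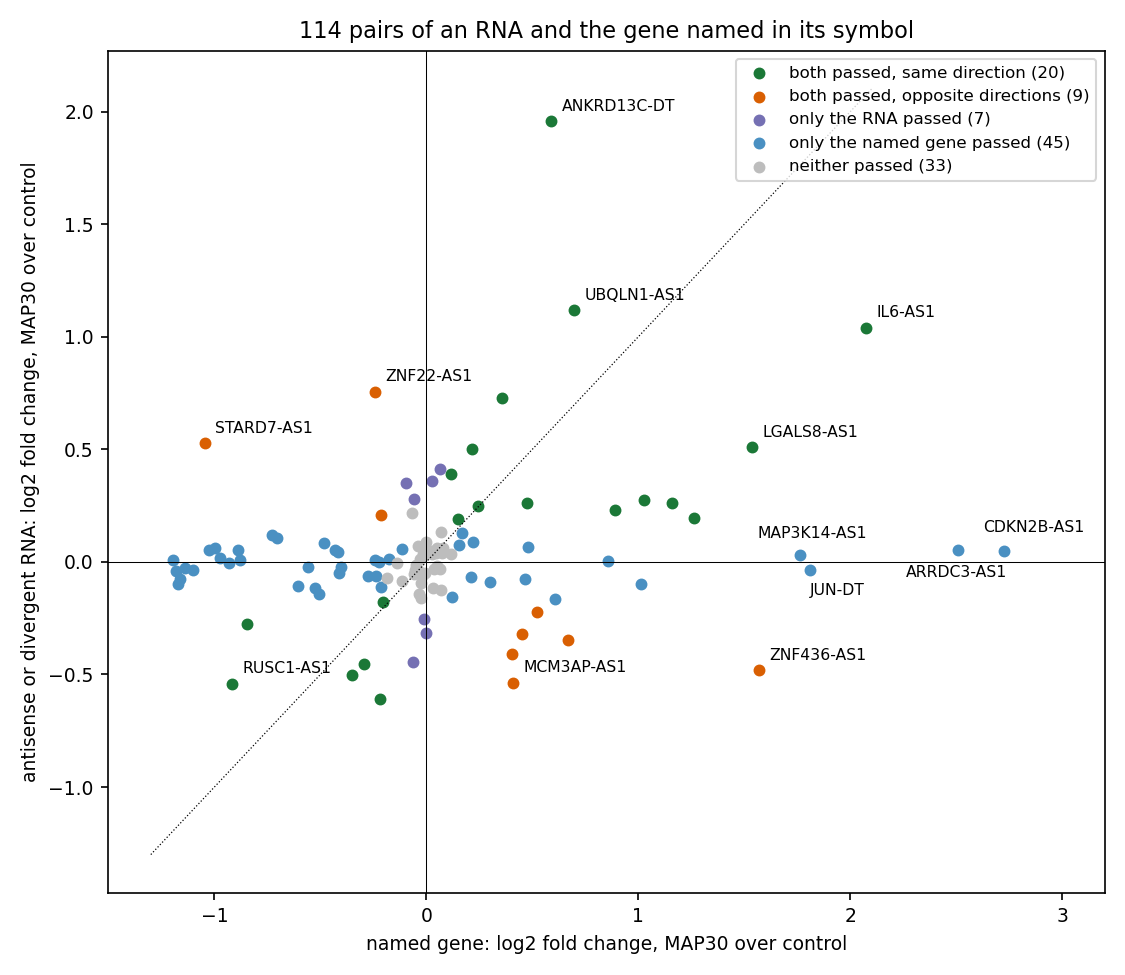
Log2 fold change, MAP30 over control, of each RNA (vertical axis) against that of the gene named in its symbol (horizontal axis) for 114 pairs, coloured by which of the pair passed; the dotted line marks equal change. Pairs in which only the gene passed spread along the horizontal axis, out to 2.73 for CDKN2B, while the RNA stays near 0.

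Of the 20 pairs called in the same direction, both members were higher in 14 and both lower in 6. Beyond those above, the named gene rose several times more than its RNA in the pairs of DIP2C-AS1 (0.20 for the RNA and 1.26 for the gene), ZNF566-AS1 (0.26 and 1.16), PPP1R3B-DT (0.27 and 1.03) and ST20-AS1 (0.23 and 0.89). CBR1-AS1 was at -0.28 and CBR1, a carbonyl reductase gene, at -0.85. The pairs of IDI2-AS1, TENM3-AS1 and PIEZO1-AS1 had differences of 0.00, 0.04 and 0.03, which did not pass. RPL34-DT was at 0.39 and RPL34 at 0.12, with a difference of 0.28 ± 0.14 SE that did not pass either; the 3 probe sets of RPL34, a ribosomal protein gene, held 1 higher and 1 lower. RPL26L1-AS1 was at 0.26 and RPL26L1 at 0.47. With hybridization-control centring DIP2C-AS1 (-0.01), ZNF566-AS1 (0.05), PPP1R3B-DT (0.07), ST20-AS1 (0.02), IDI2-AS1 (0.04), TENM3-AS1 (-0.02), RPL34-DT (0.18) and RPL26L1-AS1 (0.05) lost their calls. With poly-A-control centring CBR1-AS1 (-0.11) and PIEZO1-AS1 (-0.01) lost theirs.

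Opposite directions were called in 9 pairs, with the RNA higher in 3 and lower in 6. ZNF436-AS1 stood at -0.37, -0.23 and -0.19 in MAP30 arrays, against 0.16, 0.30 and 0.19 in control arrays, while ZNF436, a zinc finger gene, stood at 0.68, 0.89 and 0.89 in MAP30 arrays, against -0.73, -0.83 and -0.68 in control arrays. The groups did not overlap on either side. The gene was 2.96-fold higher and the RNA 1.40-fold lower, a difference of -2.05 ± 0.07 SE (adjusted p by limma 2.06e-07). Only 1 of its 2 probe sets was lower (-0.86), a set of a class that can match several transcripts. The other was at -0.10 and did not pass, so that the RNA has no call without that class.

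STARD7-AS1 moved the other way round. It stood at 0.17, 0.32 and 0.46 in MAP30 arrays, against -0.21, -0.19 and -0.22 in control arrays, with both probe sets higher (0.53 ± 0.07 SE). STARD7, which encodes a carrier of phosphatidylcholine to mitochondria, stood at -0.59, -0.52 and -0.49 in MAP30 arrays, against 0.53, 0.50 and 0.50 in control arrays, and was 2.06-fold lower in all 3 of its probe sets. The difference was 1.57 ± 0.05 SE (adjusted p by limma 1.65e-07).

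ZNF22-AS1 stood at 0.21, 0.50 and 0.42 in MAP30 arrays, against -0.36, -0.30 and -0.47 in control arrays. It rose by 0.76 ± 0.08 SE, with all 3 of its probe sets higher, and ZNF22, a zinc finger gene of the Krüppel type, was at -0.24 ± 0.03 SE. ZNF22 lost its call with poly-A-control centring (-0.08, adjusted p by limma 0.0612), whereas a constant added to a whole array cannot move the size of the difference, 1.00 ± 0.08 SE. MCM3AP-AS1 stood at -0.15, -0.45 and -0.18 in MAP30 arrays, against 0.39, 0.29 and 0.15 in control arrays. It was at -0.54 ± 0.09 SE, and MCM3AP, which encodes a scaffold of mRNA export, at 0.41 ± 0.05 SE. NFYC-AS1 was at -0.41 and NFYC, which encodes a subunit of the CCAAT-binding factor NF-Y, at 0.40.

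The remaining opposite pairs were less firm. C2orf74-DT was at -0.32 and C2orf74 at 0.45. RPP38-DT was at -0.22 and RPP38, which encodes a subunit of ribonuclease P, at 0.52. ERCC6L2-AS1, at -0.35, had overlapping groups, with -0.07, -0.36 and 0.02 in MAP30 arrays and 0.33, -0.02 and 0.33 in control arrays, beside ERCC6L2, a gene of DNA repair, at 0.67. With poly-A-control centring these 3 RNAs lost their calls, at -0.16, -0.06 and -0.18. SLCO4A1-AS1 was at 0.21 and SLCO4A1, which encodes an organic anion transporter, at -0.22; the RNA had no call with hybridization-control centring, at 0.00.

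**Figure D4:**
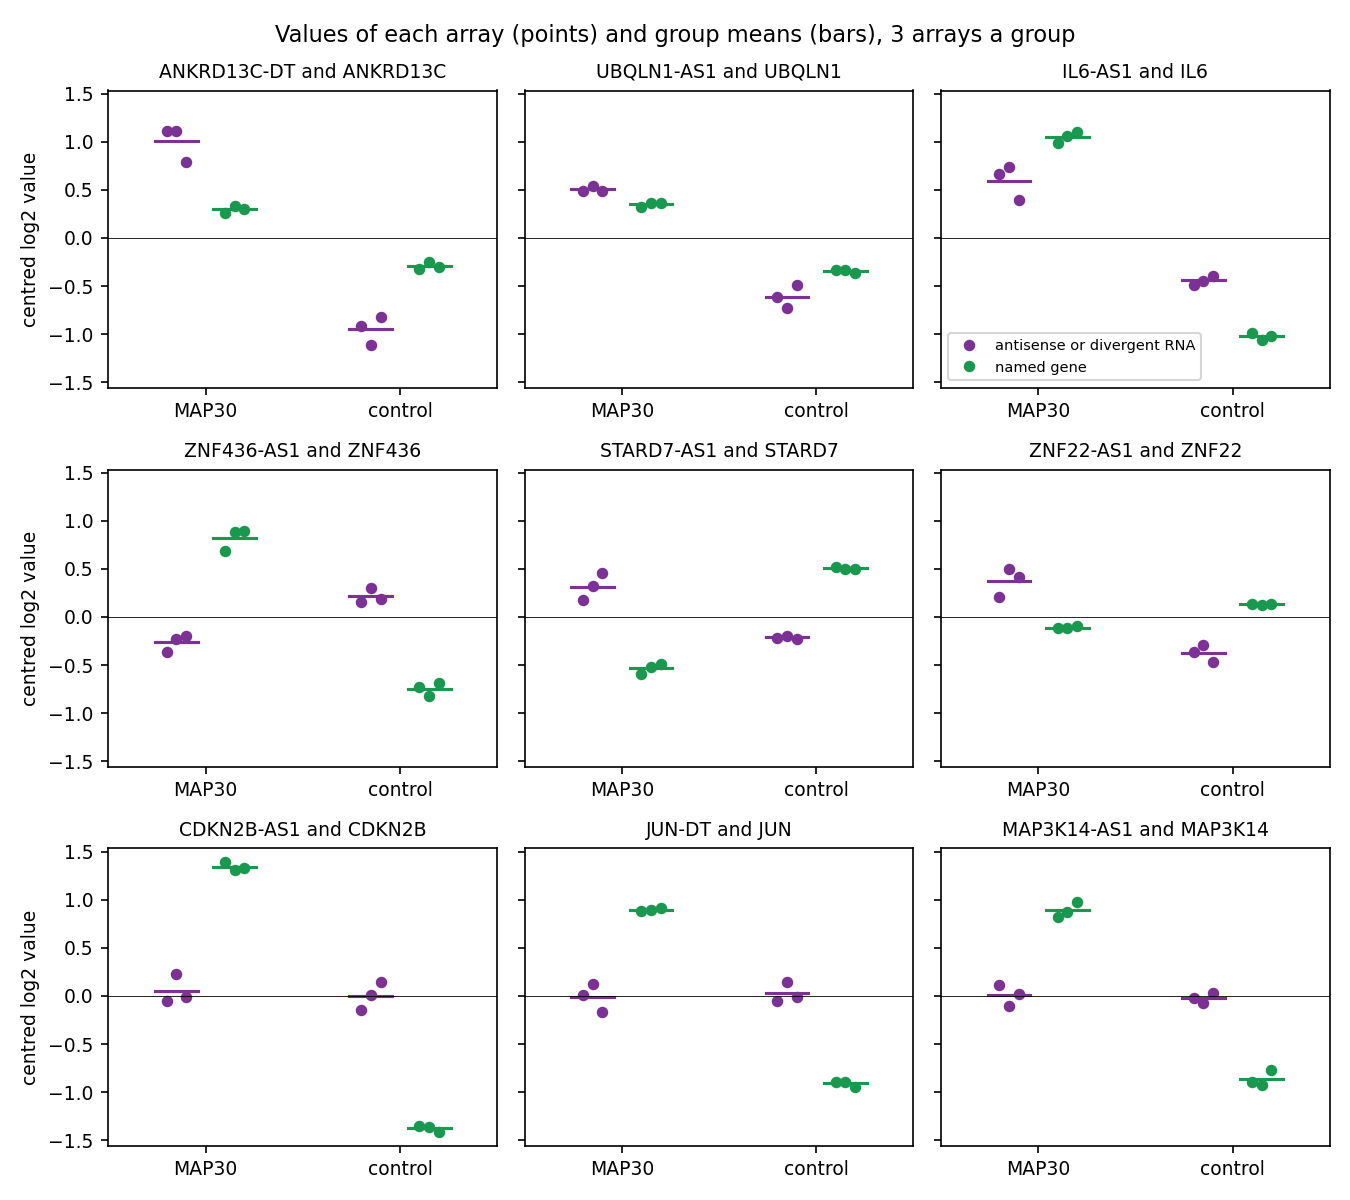
Centred log2 values of each array for 9 pairs, with MAP30 left of control in each panel, points for the 3 arrays of a group and bars for their means. The upper row shows pairs that rose together, the middle row pairs called in opposite directions, and the lower row pairs in which the gene rose and the RNA of both groups lay around 0.

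In 45 pairs only the gene passed, higher in 15 and lower in 30, and in 12 of them the gene changed at least 2-fold, higher in 5 and lower in 7. CDKN2B, which encodes the cyclin-dependent kinase inhibitor p15, rose 6.61-fold (2.73 ± 0.04 SE), with 1.40, 1.31 and 1.34 in MAP30 arrays and -1.35, -1.36 and -1.42 in control arrays. Its antisense partner CDKN2B-AS1, known as ANRIL and reported to bring Polycomb proteins to this locus, had -0.06, 0.23 and -0.01 in MAP30 arrays and -0.14, 0.01 and 0.14 in control arrays. These groups overlapped, and the log2 fold change was 0.05 ± 0.09 SE. The difference between them was -2.68 ± 0.12 SE (adjusted p by limma 5.81e-07). A single probe set of the class that can match several transcripts measured CDKN2B-AS1.

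The same held for JUN-DT beside JUN, the AP-1 transcription factor gene. JUN-DT had 0.01, 0.13 and -0.16 in MAP30 arrays and -0.05, 0.15 and -0.01 in control arrays (-0.04 ± 0.08 SE), and these overlapped. JUN rose 3.51-fold, with 0.89, 0.89 and 0.92 in MAP30 arrays and -0.89, -0.89 and -0.94 in control arrays. MAP3K14-AS1 was at 0.03 ± 0.06 SE beside a rise of 3.39-fold of MAP3K14, the kinase gene of non-canonical NF-kB signalling. ARRDC3-AS1 was at 0.05 ± 0.09 SE beside a rise of 5.68-fold of ARRDC3, an alpha-arrestin gene. CCNT2-AS1 was at -0.10 beside a rise of 1.01 of the cyclin gene CCNT2. With hybridization-control centring JUN-DT (-0.25) and MAP3K14-AS1 (-0.18) passed as lower, and CCNT2-AS1 gained a call too. MAP3K14-AS1 passed as higher with poly-A-control centring (0.19). CDKN2B-AS1 and ARRDC3-AS1 had no call with either centring.

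Genes that fell at least 2-fold also stood beside RNAs that did not pass. CSNK1G2-AS1 was at 0.01 ± 0.05 SE and CSNK1G2, a casein kinase gene, at -1.20. ICMT-DT was at -0.04 ± 0.07 SE and ICMT, which encodes a methyltransferase of prenylated proteins, at -1.10. TMX4-AS1 was at -0.03 and TMX4, which encodes a thioredoxin-related membrane protein, at -1.14. COL18A1-AS1 was at -0.04 and the collagen gene COL18A1 at -1.18, GAS6-AS1 at 0.05 and GAS6, a ligand of receptor tyrosine kinases, at -1.02, L1CAM-AS1 at -0.10 and the adhesion gene L1CAM at -1.17, and TMEM51-AS1 at -0.08 and TMEM51 at -1.16. In each of these 12 pairs the difference between gene and RNA passed, as it did in 36 of the 45. That these RNAs did not pass turns on scaling. With hybridization-control centring CSNK1G2-AS1 (-0.20), ICMT-DT (-0.24), TMX4-AS1 (-0.24) and COL18A1-AS1 (-0.25) passed as lower. GAS6-AS1, L1CAM-AS1 and TMEM51-AS1 gained a call there too. With poly-A-control centring CSNK1G2-AS1 (0.17) and TMX4-AS1 (0.14) passed as higher, and GAS6-AS1 gained a call.

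Only the RNA passed in 7 pairs. ZNF407-AS1 rose by 0.41 ± 0.04 SE, with ZNF407 at 0.07. ADAMTSL4-AS1 rose by 0.35 ± 0.04 SE, with ADAMTSL4, which encodes a fibrillin-binding matrix protein, at -0.10. NR2F1-AS1 rose by 0.36 ± 0.06 SE, with NR2F1, an orphan nuclear receptor gene, at 0.03; the RNA lost its call with hybridization-control centring (0.15, adjusted p by limma 0.0585) and with a narrower choice of probe sets (0.12). FLVCR1-DT fell by 0.44 on the log2 scale, with FLVCR1, a transporter gene, at -0.06. In a fit of single probe sets 1 of 3 of FLVCR1 was lower, 1 of 4 of ZNF407 higher and 1 of 3 of ADAMTSL4 lower. KCNJ5-AS1 was at -0.32 and the potassium channel gene KCNJ5 at 0.00, and ARRDC1-AS1 at -0.26 and ARRDC1 at -0.01; ARRDC1-AS1 lost its call with poly-A-control centring (-0.09, adjusted p by limma 0.0558). The seventh, GRIK1-AS2, stood just inside the threshold at 0.28 ± 0.10 SE (adjusted p by limma 0.0499) and lost its call without 5 of the 6 arrays, each left out in turn. GRIK1-AS1, which shares the glutamate receptor gene GRIK1 with it, was at -0.05 and GRIK1 at -0.06. Scaling moved the genes as well. With hybridization-control centring ADAMTSL4 (-0.31), FLVCR1 (-0.27), GRIK1 (-0.27), KCNJ5 (-0.21), NR2F1 (-0.18) and ZNF407 (-0.14) passed as lower. ADAMTSL4-AS1 then kept its call narrowly, at 0.14 (adjusted p by limma 0.0486). With poly-A-control centring ZNF407 (0.23), NR2F1 (0.19) and KCNJ5 (0.16) passed as higher.

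Of the 17 divergent transcripts, 3 rose, 3 were lower and 11 did not pass, against 57.5% of all genes called. The rises were ANKRD13C-DT, RPL34-DT and PPP1R3B-DT, and the lower ones were FLVCR1-DT, C2orf74-DT and RPP38-DT. Beside JUN-DT and ICMT-DT, several that did not pass had a gene that did. CTBP1-DT was at 0.06 and CTBP1, a transcriptional corepressor gene, at -0.999. NOL4L-DT was at 0.05 and NOL4L at -0.89, and PCMTD1-DT at 0.12 and PCMTD1 at -0.73. AFDN-DT was at -0.08 and AFDN, which encodes the junction protein afadin, at 0.47. The groups of AFDN-DT lay apart although it did not pass, as did those of EHBP1-AS1, GSN-AS1, HTR5A-AS1, PAK6-AS1 and TMEM51-AS1, with changes of -0.14 to 0.05 among these 6. Those of WDFY3-AS2, the lowest of the RNAs that did not pass, and of ADARB2-AS1, the highest, overlapped. With hybridization-control centring JUN-DT, ICMT-DT, AFDN-DT, IRX2-DT, MIF4GD-DT, PBX3-DT and TMEM132E-DT gained a call, while RPL34-DT and PPP1R3B-DT lost theirs. With poly-A-control centring CTBP1-DT, NOL4L-DT, IRX2-DT and MIF4GD-DT gained a call, while C2orf74-DT and RPP38-DT lost theirs. ANKRD13C-DT and FLVCR1-DT kept their calls with both.

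Where an RNA starts was taken from RefSeq on GRCh38.p14, used only for which genes neighbour each other. In 76 pairs the strand of both was known, and in 38 it was not known here. In 33 pairs the RNA overlapped its gene on the opposite strand with starts more than 1000 bases apart: 12 of these RNAs were called (over all genes 57.5%, over the 118 RNAs 30.5%), and 7 pairs went the same way and 1 the opposite way. In 22 pairs it overlapped with starts within 1000 bases, with 10 RNAs called, 7 pairs the same way and 3 opposite. In 18 pairs the 2 ran apart from starts within 1000 bases without overlap, with 8 RNAs called and 3 pairs each way. In 3 pairs, JUN-DT among them, they ran apart from starts farther away, and 0 RNAs were called. These counts were not tested against each other.

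Promoter windows show how close such starts can lie. The first 3 below are all pairs that run apart from near starts and were called in the same direction, and the other 2, chosen after their values were seen, are the pair of this kind with the largest opposite difference and the one with the largest difference where only the gene passed. Each window holds 250 bases before and 50 bases after the start of the RNA, read 5′ to 3′ on the RNA's strand, as RefSeq gives it on GRCh38.p14. The RNA starts at base 251, and capitals mark exact matches to GGGCGG (a GC box) or CCAAT on either strand. In each window the start of the named gene, on the other strand, lies inside as well: at base 162 for ANKRD13C, 185 for ZNF566, 132 for RPL34, 131 for ZNF22 and 106 for TMX4.
ANKRD13C-DT (chr1:70354561-70354860, plus strand): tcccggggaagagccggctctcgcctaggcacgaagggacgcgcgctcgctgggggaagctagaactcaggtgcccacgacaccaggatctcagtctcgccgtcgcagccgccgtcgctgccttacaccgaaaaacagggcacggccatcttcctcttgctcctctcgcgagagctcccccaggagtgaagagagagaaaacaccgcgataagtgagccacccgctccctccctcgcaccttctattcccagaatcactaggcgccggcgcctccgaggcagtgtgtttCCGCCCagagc
ZNF566-AS1 (chr19:36489377-36489676, plus strand): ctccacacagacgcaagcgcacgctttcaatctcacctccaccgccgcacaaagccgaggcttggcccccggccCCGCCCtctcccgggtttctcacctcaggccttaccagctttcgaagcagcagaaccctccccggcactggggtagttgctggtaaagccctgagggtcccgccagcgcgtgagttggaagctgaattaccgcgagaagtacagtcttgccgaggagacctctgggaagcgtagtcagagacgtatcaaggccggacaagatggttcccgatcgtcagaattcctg
RPL34-DT (chr4:108620408-108620707, minus strand): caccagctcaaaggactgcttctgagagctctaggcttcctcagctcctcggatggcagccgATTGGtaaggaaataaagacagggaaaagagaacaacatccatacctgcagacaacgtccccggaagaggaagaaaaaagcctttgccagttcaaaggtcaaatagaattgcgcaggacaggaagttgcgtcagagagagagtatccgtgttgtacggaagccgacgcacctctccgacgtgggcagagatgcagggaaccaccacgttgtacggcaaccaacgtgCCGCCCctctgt
ZNF22-AS1 (chr10:45000754-45001053, minus strand): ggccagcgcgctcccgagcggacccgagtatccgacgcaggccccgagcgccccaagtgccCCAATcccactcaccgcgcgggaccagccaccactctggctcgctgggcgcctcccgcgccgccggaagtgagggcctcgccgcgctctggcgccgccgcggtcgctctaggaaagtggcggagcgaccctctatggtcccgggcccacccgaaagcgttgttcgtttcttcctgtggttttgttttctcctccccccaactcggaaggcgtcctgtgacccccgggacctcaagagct
TMX4-AS1 (chr20:8019656-8019955, plus strand): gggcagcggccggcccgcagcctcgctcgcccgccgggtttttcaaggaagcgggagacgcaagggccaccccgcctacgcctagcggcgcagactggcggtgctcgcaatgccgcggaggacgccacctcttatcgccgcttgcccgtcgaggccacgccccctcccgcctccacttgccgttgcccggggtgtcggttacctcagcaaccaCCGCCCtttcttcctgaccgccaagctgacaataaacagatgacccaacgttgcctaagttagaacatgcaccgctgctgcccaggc

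The starts of RNA and gene were 89 bases apart for ANKRD13C-DT, 66 for ZNF566-AS1, 119 for RPL34-DT, 120 for ZNF22-AS1 and 145 for TMX4-AS1. As deposited, the 2 strands over such short distances gave a larger rise of the RNA (ANKRD13C-DT) and a larger rise of the gene (ZNF566-AS1). They also gave rises whose difference did not pass (RPL34-DT), opposite changes (ZNF22-AS1) and a fall of the gene alone (TMX4-AS1). TMX4-AS1 passed as lower with hybridization-control centring (-0.24) and as higher with poly-A-control centring (0.14). A GC box match stood in 4 of the 5 windows and a CCAAT match in 2.

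Promoter windows were found for 88 of the 118 RNAs, some with several starts, which gave 109 windows. The letters GGGCGG stood in 59.6% of them, against 44.9% of all 34796 windows of the table, and CCAAT in 32.1%, against 34.6%. The AP-1 letters TGANTCA stood in 5.5%, against 7.73%. The cyclic AMP element TGACGTCA stood in 0.917%, against 1.84%, the E2F letters GGCGGGAA in 1.83%, against 3.15%, and the EGR letters GCGTGGGCG in 1.83%, against 0.793%. Among the 42 windows of the RNAs that were called, GGGCGG stood in 61.9%, CCAAT in 31% and TGANTCA in 4.76%. Both strands were searched, GGGCGG and GGCGGGAA can overlap, and a match describes the letters only.

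By the start of the symbol, the 6 pairs named ZNF or ZBTB, which are zinc finger genes, had 3 RNAs higher and 1 lower. Among their genes 2 were higher and 1 lower. Over all genes 26.9% were higher and 30.6% lower, and 30.5% of the 118 RNAs were called. The RNAs were ZNF22-AS1, ZNF407-AS1, ZNF566-AS1, ZNF436-AS1, ZNF667-AS1 and ZBTB7C-AS2. The calls of ZNF566-AS1 and ZNF436-AS1 were not firm, as given above. Other groups were formed by the first letters of the symbol too, which miss genes of the same role and can take in others. Of 3 pairs with letters of cell cycle and DNA genes (CDKN2A, CDKN2B and MCM3AP) 0 RNAs were higher and 1 lower. That RNA was MCM3AP-AS1, beside the mRNA export gene. Of 2 pairs with letters of kinase and signalling genes (ARHGEF17 and MAP3K14) 0 RNAs were called. Of 3 pairs with letters of membrane and adhesion genes (CD300LD, SLC9A3 and SLCO4A1) 1 RNA was higher and 0 lower. The remaining 100 pairs had 17 RNAs higher and 13 lower. AGAP2-AS1, KCNJ5-AS1, FLVCR1-DT and ERCC6L2-AS1 were among those lower, although their genes have such roles.

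Several RNAs were read by more than 1 probe set. Of 176 probe sets 48 were called in a fit over all probe sets, in which 56.3% of all were. Of the 41 RNAs with more than 1 probe set, 10 had every set called in 1 direction, 7 had some of them called, all one way, 23 had none called and 1 had sets called in both directions. That was NPSR1-AS1, with 10 probe sets, of which 2 were higher, at 0.23 and 0.31, and 1 was lower, at -0.21, while its mean was 0.04.

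The calls split by how firm they were. Leaving out each array in turn, 27 of the 36 called RNAs kept their call and direction without every one of the 6 arrays. The other 9 were DIP2C-AS1, ERCC6L2-AS1, GRIK1-AS2, IDI2-AS1, PPP1R3B-DT, RPL34-DT, RPP38-DT, SLCO4A1-AS1 and TENM3-AS1. ERCC6L2-AS1, PPP1R3B-DT, RPL34-DT and TENM3-AS1 were called although their groups overlapped. With arrays scaled in 3 further ways, 19 of the 36 kept their call and direction, 10 higher and 9 lower. Through every alternative in which they were tested 18 did: ANKRD13C-DT, UBQLN1-AS1, IL6-AS1, ZNF22-AS1, KRT10-AS1, STARD7-AS1, LGALS8-AS1, BASP1-AS1, ZNF407-AS1 and ADAMTSL4-AS1 as higher, and AGAP2-AS1, RUSC1-AS1, MCM3AP-AS1, LIPT2-AS1, MRPL20-AS1, FLVCR1-DT, NFYC-AS1 and KCNJ5-AS1 as lower. Of these, BASP1-AS1 and ZNF407-AS1 were each measured only by a probe set of a class that can match several transcripts. The fit of gene-specific classes alone could therefore not test them. Centring each array on its 18 hybridization controls gave 10 RNAs higher and 74 lower, and centring on its 24 poly-A controls gave 56 higher and 9 lower. Over all genes the median change was then -0.23 and 0.14 on the log2 scale, against -0.02 as deposited, so a change near 0 takes its direction from the scaling.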

How the data were processed

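The study measured RNA of T24 cells on Affymetrix arrays after 3' in vitro transcription and biotin labelling, per the labels' protocols. The authors deposited log2 expression values for 49395 probe sets, each centred on its median over the 6 arrays (to within 5.0e-07). RMA and MAS5 are named in the submitters' processing notes without a role, and no source used here states the base of the logarithm, taken as 2.

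Probe sets were named by the platform annotation: 44988 had 1 symbol, 1832 several, 2473 none and 102 were controls. Single-symbol probe sets of a gene were averaged. A further 9 symbols of the same kind, such as ZEB1-AS1, occur only on probe sets with several symbols and were not analysed here. MAP30 minus control was fitted over all 18132 genes with limma 3.58.1 (R 4.3.3; lmFit, eBayes, Benjamini-Hochberg, two-sided, threshold 0.05). Differences within pairs were added as rows, 1 a pair, and adjusted over all rows. The fit was also run on simulated data with independent noise and few genes changed, which could not test the effect of scaling. Python 3.11.15, pandas 2.3.3, numpy 2.4.6 and matplotlib 3.10.9 were used.

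The members, lists and rules were chosen with earlier results of these data known. Named RNAs were the 12 largest rises and 10 largest falls with groups apart, the 8 leading pairs of each direction class, the 6 RNAs of smallest change beside a gene changed at least 2-fold, RNAs sharing a gene, and a fixed set of 18, of which 2, CDKN2B-AS1 and MCM3AP-AS1, were measured. Others named were picked once values had been seen. The number of arrays limits the precision.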

Additional observations from a re-analysis of the deposited data

How the results depend on the processing

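The counts of RNAs and pairs stayed within 1.5 times with quantile normalization and with the median over probe sets. They did so too with gene-specific classes alone (_at and _a_at) and with a robust variance prior. In a fit of single probe sets, which held no pairs, 28 of the 176 member probe sets were higher and 20 lower. The limits lie in scaling. With hybridization-control centring 10 RNAs were higher and 74 lower, 60 pairs went the same way and 16 opposite ways, and the gene alone was called in 24. With poly-A-control centring 56 were higher and 9 lower, 15 pairs were opposite and the RNA alone was called in 17. The RNAs were then called in 71.2% (all genes 80.8%) and 55.1% (all genes 69.8%). Requiring at least a 2-fold change left 3 higher and 0 lower. Under hybridization-control centring CSNK1G2-AS1 (-0.20), MAP3K14-AS1 (-0.18), NR2F1 (-0.18) and ZNF407 (-0.14) changed sign and passed, and under poly-A-control centring KCNJ5 (0.16) and TMX4-AS1 (0.14) did. This follows from the size of the array-wide shift, since their deposited values were near 0.

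Leaving out 1 array gave 15 to 20 RNAs higher and 13 to 18 lower, 16 to 19 pairs the same way, 7 to 10 opposite and 67 to 70 differences that passed. Differences within pairs passed in 74 with hybridization-control, 70 with poly-A-control centring and 51 with the gene-specific classes alone, where fewer pairs could be tested. With the replicate number as a block 17 RNAs were higher and 18 lower, 18 pairs went the same way and 68 differences passed. Deviations of same-numbered arrays correlated at -0.04, 0.07 and 0.01, so the numbers were not taken as pairing the arrays.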
